A study of Arabidopsis thaliana with 36 samples.

Results

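The roots compared here carried the double mutant genotype nlp2-3 nlp7-1 or the single mutant genotype nlp2-3, with 3 libraries of each. All 6 libraries were chosen by their genotype and tissue labels out of the 36 libraries of the series, and every counted gene was read. Both groups carry the nlp2-3 allele, and by their labels they differ by the nlp7-1 allele. Any other difference between the lines cannot be told apart from that allele. The plants were Arabidopsis thaliana of the Col-0 ecotype, 42 days old, raised in sand on 5 mM nitrate under 8 h of light and 16 h of dark after 3 days of cold. Total RNA of roots was sequenced, and the labels give no insertion site, no backcross history and no number of plants per library. Roots of nlp7-1 and of Col-0, with 3 libraries each, and shoots of the same mutants served for reference. The series also holds Col-4 and nlp2-2, and the parent line of nlp2-3 is not given in the labels.

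NIN-like proteins (NLPs) are plant transcription factors that bind nitrate-responsive promoter elements through an RWP-RK domain. Nitrate makes NLP7 accumulate in the nucleus within minutes of supply, where it switches on genes for nitrate uptake, reduction and signalling. NLP2 is a close relative that binds many of the same targets. The comparison asks which transcripts differ when NLP7 is disrupted in plants whose NLP2 is disrupted already.

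The 6 libraries held 19870734 to 28538665 counts, with nlp2-3 replicate 3 the deepest. Levels are CPM, counts scaled to library size by TMM (a trimmed mean of ratios between libraries), with the SD over 3 libraries after ±. Differences are log2 fold changes of the double mutant over nlp2-3, with the standard error of the fit after ±. Replicates varied more than counting alone gives, by a median factor of 3.19 in variance in the double mutant and 3.77 in nlp2-3. The p-values rest on the spread within genotypes over all 18 root libraries of the series. That spread may be technical, since the labels do not say how the replicates were made. The first principal component took 47.5% of the variance of the 6 libraries and placed all double mutant libraries on one side. Fewer cells of a type and less RNA per cell cannot be told apart in such bulk tissue. The root label was checked against marker genes. The green tissue list summed to 84.8 to 143 CPM in double mutant roots and 108 to 153 CPM in nlp2-3 roots, against 108968 to 131907 CPM in the shoots of both genotypes. The root hair list summed to 251 to 341 CPM in double mutant roots and 252 to 372 CPM in nlp2-3 roots, and to 1.31 CPM or less in the shoots. None of the markers measured for root hairs (9), xylem (15) or green tissue (18) was called. For endodermis and suberin 2 of 20 were called higher, against 2.82% of all genes tested. No marker on these 4 lists stood at 0 in all 6 libraries.

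A gene was called when its edgeR quasi-likelihood p, adjusted by the Benjamini-Hochberg method over all 20486 genes tested, was under 0.05. Of these genes 1326 (6.47%) were called, 749 lower (3.66%) and 577 higher (2.82%) in the double mutant. At least 2-fold changes made up 276 of them, 195 lower and 81 higher. The number was 870 without nlp2-3 replicate 3 and 694 in a fit of only the groups compared. Among the lower calls were the nitrate carrier NRT2.1, the nitrate reductase NIA1, the potassium channel SKOR and 18 of 21 low oxygen genes, and among the higher ones the nitrate carrier NRT2.5 and 11 of 21 glucosinolate genes. The median log2 fold change over all genes tested was 0.01.

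The targeted genes were read first. NLP7 (AT4G24020) stood at 41.0, 41.3 and 41.5 CPM in the double mutant libraries and at 118, 102 and 139 CPM in the nlp2-3 libraries. These groups did not overlap, and the change was -1.54 ± 0.10 on the log2 scale (adjusted p = 1.56e-08). Reads on NLP7 remained in the mutant, as they did in nlp7-1 roots (35.1 ± 2.74 CPM, SD, n = 3), and counts do not show whether they encode a full protein. NLP2 (AT4G35270) stood at 50.1, 52.7 and 45.4 CPM in the double mutant and 37.7, 33.3 and 39.3 CPM in nlp2-3, against 65.8 ± 0.780 CPM in Col-0 roots. Reads on NLP2 thus remained in both genotypes, and whether they encode a full protein is likewise not shown by counts. The NLP2 difference of 0.42 ± 0.11 (adjusted p = 0.0298) lost its call without nlp2-3 replicate 1, 2 or 3 or double mutant replicate 1 or 2, with adjusted p from 0.0506 to 0.129. Here and in what follows, each library was left out on its own.

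Of the 8 family members tested, 1 was lower and 5 were higher, with a median of 0.38. Over all genes tested, 3.66% were called lower and 2.82% higher. The number higher was 3 or 4 without any 1 library. NLP8 rose most, from 11, 12.9 and 12.2 CPM in nlp2-3 to 20.4, 20.3 and 20.9 CPM, a change of 0.77 ± 0.10. NLP5 went from 36.1 ± 2.09 to 49.2 ± 2.00 CPM (0.45 ± 0.07, adjusted p = 0.000211). NLP3 changed by 0.60 ± 0.13, a call lost without double mutant replicate 2, with adjusted p = 0.0528, and NLP4 by 0.34 ± 0.08, lost without nlp2-3 replicate 1 or 2 or double mutant replicate 1 or 3 and in a fit of only the groups compared, with adjusted p from 0.0543 to 0.0925. NLP6 (0.19, adjusted p = 0.109) and NLP1 (-0.01, adjusted p = 0.949) were not called. NLP9 was too low to be tested, with 0.410 to 0.756 CPM in the double mutant and 0.0490 to 0.300 CPM in nlp2-3.

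**Figure D1:**
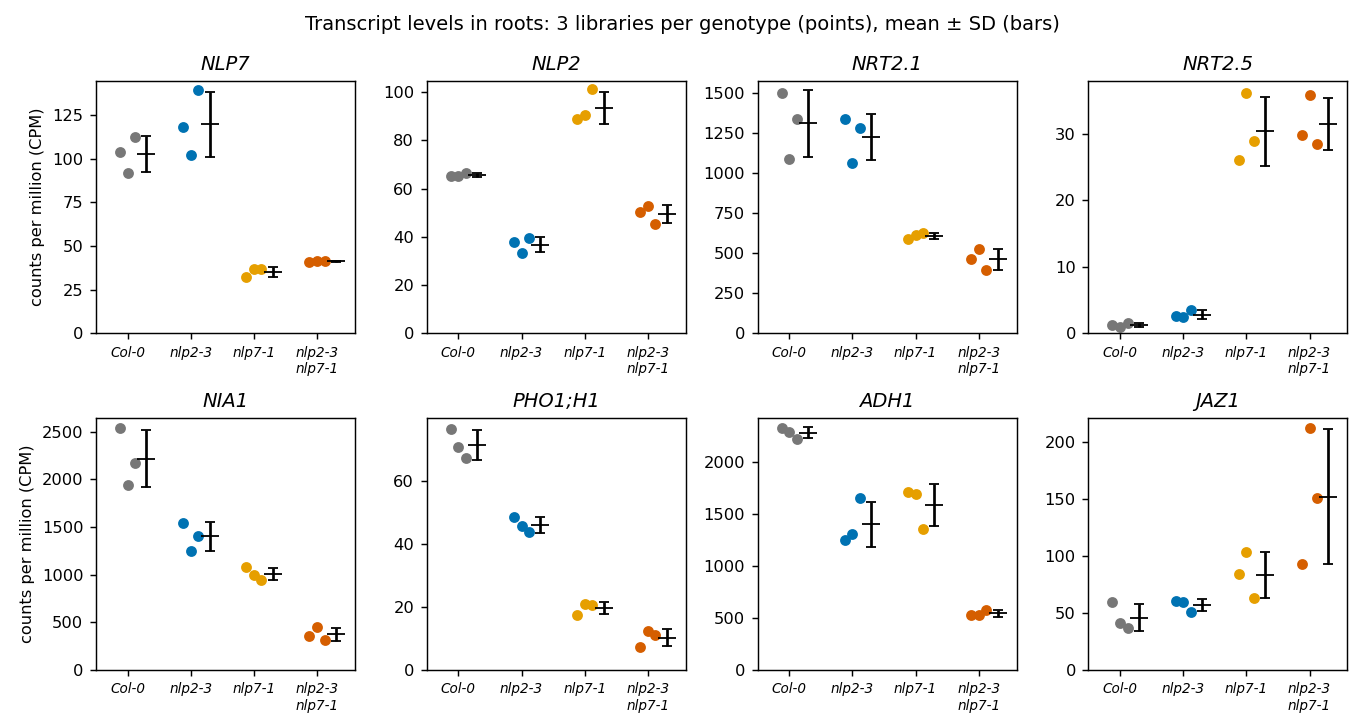
Transcript levels of 8 genes in roots of Col-0, nlp2-3, nlp7-1 and nlp2-3 nlp7-1, in CPM (scaled counts, linear axes from 0). Points are the 3 libraries per genotype and bars give the mean ± SD. The double mutant libraries of NIA1 lie at 312 to 448 CPM, below the 1248 to 1545 CPM of nlp2-3, whereas those of JAZ1 spread from 93.2 to 212 CPM.

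Nitrate transporters moved in both directions. Of 24 measured, 6 were lower and 2 higher, with a median of -0.03, against 3.66% lower and 2.82% higher among all genes. NRT2.1 (AT1G08090), the main inducible high-affinity carrier of roots, held 459, 525 and 393 CPM in the double mutant and 1334, 1061 and 1278 CPM in nlp2-3. That change of -1.42 ± 0.12 (adjusted p = 6.43e-07, 2.67-fold lower) left no overlap between the groups. NRT3.1, the membrane partner that the NRT2 carriers need, went from 235 ± 34.4 to 112 ± 18.9 CPM (-1.06 ± 0.14). NPF7.3/NRT1.5, the carrier for nitrate release to the xylem, changed by -1.06 ± 0.10, and NPF6.3/NRT1.1, the dual-affinity carrier and nitrate sensor, by -0.44 ± 0.09 (adjusted p = 0.00568).

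NRT2.5 (AT1G12940), a high-affinity carrier known from nitrogen-starved roots, went the other way. It stood at 2.5, 2.35 and 3.49 CPM in nlp2-3 and 29.8, 35.9 and 28.6 CPM in the double mutant, 11.1-fold higher (3.47 ± 0.17, adjusted p = 4.95e-10). NRT2.4, another carrier of nitrogen-starved roots, went from 14.3 ± 0.635 to 22.2 ± 0.837 CPM (0.64 ± 0.12). The remaining called members were NRT2.6 (-0.91 ± 0.25), which lost its call without nlp2-3 replicate 1, 2 or 3 or double mutant replicate 1 or 3, with no filter on low counts and in a fit of only the groups compared, with adjusted p from 0.0629 to 0.117, and the anion channel SLAH1 (-0.62 ± 0.15), which lost it without nlp2-3 replicate 1 or 3 or double mutant replicate 1 and in a fit of only the groups compared, with adjusted p from 0.0501 to 0.0699.

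Among 9 measured genes of nitrate and nitrite reduction 5 were lower and none higher, where 3.66% of all genes were called lower. Their median was -0.27. NIA1 (AT1G77760), one of the nitrate reductase genes, fell most: its double mutant libraries held 354, 448 and 312 CPM and its nlp2-3 libraries 1545, 1248 and 1411 CPM. The change was -1.92 ± 0.13 (adjusted p = 3.24e-08), or 3.77-fold lower. NIA2, the other nitrate reductase gene, stood at 514, 504 and 438 CPM against 641, 590.3 and 765 CPM, a smaller change of -0.46 ± 0.11 that lost its call without nlp2-3 replicate 3 or double mutant replicate 3 and in a fit of only the groups compared, with adjusted p from 0.0501 to 0.106. NIR1, the nitrite reductase, went from 919.7 ± 138 to 609 ± 34.1 CPM (-0.60 ± 0.10, adjusted p = 0.000764). UPM1, needed for the sirohaem of nitrite reductase, changed by -0.41 ± 0.09 and CNX1, needed for the molybdenum cofactor of nitrate reductase, by -0.27 ± 0.06. UPM1 lost its call without nlp2-3 replicate 1 or 3 and in a fit of only the groups compared, with adjusted p from 0.052 to 0.0673 and CNX1 in a fit of only the groups compared, with adjusted p = 0.054. Counted without nlp2-3 replicate 3 the group had 3 lower calls, and 2 in a fit of only the groups compared.

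Sequence around the start of 4 of these genes is shown because NLPs are known to bind nitrate-responsive elements (NRE), whose half-site was searched on both strands in the 300 bases before each annotated gene start. The letters searched were TGNCCCTT, TGNCCTTT, TGNCTCTT and TGNCTTTT. The sequences are those of RefSeq TAIR10.1, written 5′ to 3′ on the strand of the gene, with the match in capitals.
NIA1, chr1:29239573-29239632, minus strand: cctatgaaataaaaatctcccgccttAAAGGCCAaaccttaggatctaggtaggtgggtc
NIA2, chr1:14158395-14158451, plus strand: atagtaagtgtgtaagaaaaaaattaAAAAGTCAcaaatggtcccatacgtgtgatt
LBD39, chr4:17640980-17641039, minus strand: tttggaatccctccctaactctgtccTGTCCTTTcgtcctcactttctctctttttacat
NRT2.6, chr3:16479585-16479644, minus strand: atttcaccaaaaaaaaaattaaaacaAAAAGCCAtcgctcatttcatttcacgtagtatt
The match lay 114 bases before the gene start in NIA1, 23 in NIA2, 80 in LBD39 and 51 in NRT2.6. Such short letters occur widely: 21.8% of 20450 windows of genes tested held a match, as did 24.2% of the 748 windows of genes called lower and 22.2% of the 577 of genes called higher. By list the share was 4 of 24 for nitrate transport (16.7%, under that of all genes), 3 of 9 for reduction (33.3%) and 6 of 23 for the regulators (26.1%). Across all lists it ran from 8.33% (low energy response) to 50% (NIN-like proteins, 4 of 8). A match describes the letters in the window and is not a bound site.

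Downstream of nitrite, ammonium is built into glutamine and glutamate. Of 16 measured assimilation genes 3 were lower and 1 higher, against 3.66% lower and 2.82% higher among all genes. GLN1;2, a cytosolic glutamine synthetase, stood at 779, 926 and 747 CPM in the double mutant and 1685, 1305 and 1617 CPM in nlp2-3 (-0.91 ± 0.10, adjusted p = 7.83e-06). The plastid glutamine synthetase GLN2 changed by -0.27 ± 0.06. GLT1, the NADH-dependent glutamate synthase, changed by -0.48 ± 0.11 and lost its call without nlp2-3 replicate 3 or double mutant replicate 2, with adjusted p from 0.056 to 0.0636. GLN1;4, another cytosolic isoform, rose from 80.1 ± 2.03 to 131 ± 25.7 CPM (0.71 ± 0.14).

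Both called genes among 5 measured for ammonium and urea uptake were higher, where 2.82% of all genes were called higher. DUR3 (AT5G45380), the high-affinity urea carrier, stood at 89.8, 79.7 and 90.6 CPM in nlp2-3 and 187, 185 and 139.9 CPM in the double mutant (0.97 ± 0.10, adjusted p = 3.45e-06). The ammonium carrier AMT1;5 was low, at 1.08, 0.300 and 1.05 CPM in nlp2-3 and 5.04, 5.93 and 2.23 CPM in the double mutant (2.41 ± 0.46). It was left out by a filter at a mean of 5 CPM, which left 1 higher call in the group.

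Regulators of the nitrate response were lower in 10 of 23 cases and higher in 2, with a median of -0.21. Over all genes 3.66% were called lower and 2.82% higher. LBD39 (AT4G37540), whose NRE match is printed above and which represses nitrogen-responsive genes, held 29.5, 26.7 and 27.6 CPM in the double mutant and 68.7, 65.3 and 69.6 CPM in nlp2-3 (-1.28 ± 0.07, adjusted p = 2.78e-09). Its relatives LBD38 (-0.72 ± 0.09) and LBD37 (-0.51 ± 0.10) also fell. BT1 (-1.64 ± 0.15) and BT2 (-1.25 ± 0.19), BTB-domain scaffold proteins, fell, with BT1 at 11.4, 14.6 and 10.9 CPM in the double mutant and 41.4, 35.2 and 38.8 CPM in nlp2-3. HRS1, a GARP-type repressor of starvation genes, went from 174 ± 5.06 to 95.1 ± 1.07 CPM (-0.87 ± 0.08). The bZIP factor TGA1 (-0.77 ± 0.07), the NAC factor NAC4 (-1.28 ± 0.16) and the MADS-box factor ANR1 (-1.21 ± 0.17), all with roles in root responses to nitrate, were lower as well. The last of the lower calls, TGA4 (-0.28 ± 0.08), was lost without nlp2-3 replicate 1 or 3 or double mutant replicate 1, 2 or 3 and in a fit of only the groups compared, with adjusted p from 0.055 to 0.127.

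The 2 higher calls were CPK32 (0.47 ± 0.08), one of the calcium-dependent kinases that phosphorylate NLP7, and CEPR1 (0.38 ± 0.09), a receptor of peptides that signal nitrogen shortage. CEPR1 lost its call without nlp2-3 replicate 2 or double mutant replicate 2 or 3, with adjusted p from 0.0522 to 0.0878. Among 10 NF-YA subunits, members of a CCAAT-binding factor, NF-YA10 (0.46 ± 0.11) was higher and NF-YA6 (-0.39 ± 0.11) lower. The median of the 10 was -0.06, and 3.66% of all genes were called lower and 2.82% higher. NF-YA10 lost its call without nlp2-3 replicate 1 or 3 or double mutant replicate 2 or 3, with adjusted p from 0.0581 to 0.119 and NF-YA6 without nlp2-3 replicate 1 or 3 or double mutant replicate 1, 2 or 3, with adjusted p from 0.0599 to 0.136.

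Pentose phosphate enzymes and root ferredoxins provide reductant for nitrate assimilation. Of 13 pentose phosphate and reductant genes 5 were lower and none higher, also after leaving out any 1 library. The share called lower among all genes was 3.66%. TKL1, a transketolase, went from 1086 ± 68.1 to 656 ± 26.3 CPM (-0.73 ± 0.07, adjusted p = 1.46e-06). The root ferredoxin FD3 changed by -0.50 ± 0.06, the root ferredoxin reductases RFNR1 and RFNR2 by -0.47 ± 0.08 and -0.59 ± 0.10, and the plastid glucose-6-phosphate dehydrogenase G6PD2 by -0.41 ± 0.08. In organic acid metabolism 3 of 22 genes were lower, among them the phosphoenolpyruvate carboxylase PPC3 (-0.61 ± 0.08) and the vacuolar malate carrier TDT (-0.75 ± 0.15).

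The low oxygen response was the list with the most called members. Group VII ethylene response factors (ERF-VII) drive it in plants: oxygen leads to their breakdown through plant cysteine oxidases (PCO), and low oxygen spares them, which turns on fermentation and sucrose synthase genes. Of 21 measured genes 18 were lower in the double mutant and none higher, with a median of -1.21 against 0.01 over all genes, where 3.66% were called lower. The 18 called genes were also those whose double mutant libraries all lay below all nlp2-3 libraries, a pattern that 11.1% of all genes tested showed. The number of lower calls was 16 to 18 when any 1 library was left out.

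Fermentation enzymes fell together. ADH1 (AT1G77120), the alcohol dehydrogenase, held 526, 524 and 578 CPM in the double mutant and 1247, 1308 and 1649.5 CPM in nlp2-3 (-1.37 ± 0.14, adjusted p = 5.8e-06). The pyruvate decarboxylases PDC1 and PDC2 changed by -1.54 ± 0.18 and -1.27 ± 0.13. SUS1 (AT5G20830) and SUS4, sucrose synthases that open sucrose without ATP, changed by -1.40 ± 0.12 and -1.56 ± 0.16, with SUS1 at 167, 189.5 and 186 CPM against 439.9, 447 and 547 CPM. NIP2;1 (AT2G34390), a membrane channel that carries lactic acid, fell most of all named genes, from 13.4, 11.9 and 20.3 CPM to 1.90, 2.23 and 1.92 CPM, 7.56-fold lower (-2.92 ± 0.26, adjusted p = 1.79e-06). ALAAT1, an alanine aminotransferase, changed by -0.30 ± 0.08 and lost its call without nlp2-3 replicate 3 or double mutant replicate 1 or 2 and in a fit of only the groups compared, with adjusted p from 0.0503 to 0.103.

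Sensors and regulators fell as well. PCO1 (AT5G15120) stood at 69.3, 61.0 and 71.7 CPM in the double mutant and 133, 128 and 157 CPM in nlp2-3 (-1.05 ± 0.09), and PCO2 changed by -1.47 ± 0.16. Among the ERF-VII genes HRE2 (-1.79 ± 0.22), HRE1 (-0.93 ± 0.10) and RAP2.3 (-0.76 ± 0.08) were lower. RAP2.12 was not called (0.01, adjusted p = 0.938), and RAP2.2 changed by -0.20 ± 0.05 with a call lost without nlp2-3 replicate 1 or double mutant replicate 2 or 3 and in a fit of only the groups compared, with adjusted p from 0.0527 to 0.105. The phytoglobin GLB1, which removes nitric oxide, changed by -1.24 ± 0.13, the LOB-domain factor LBD41 by -1.21 ± 0.12, the trihelix factor HRA1 by -1.2 ± 0.17, the desaturase SAD6 by -1.25 ± 0.14 and the ethylene receptor ETR2 by -0.75 ± 0.08. Besides RAP2.12, the phosphofructokinase PFK6 (-0.14, adjusted p = 0.369) and SRO5 (0.03, adjusted p = 0.962) were the members not called.

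**Figure D2:**
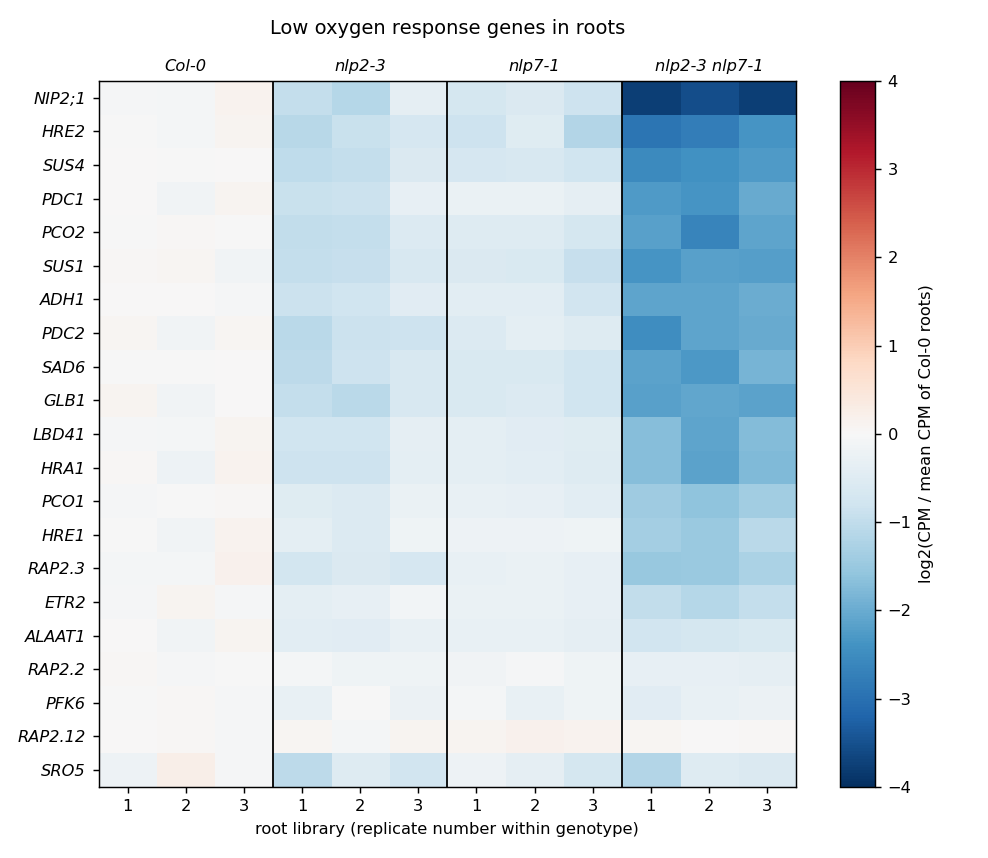
Heat map of the 21 low oxygen genes (rows) in 12 root libraries (columns, 3 per genotype), coloured by the log2 ratio of each library's CPM to the mean CPM of Col-0 roots, from -4 (blue) to 4 (red). The double mutant columns are the bluest for the 18 called genes, with ADH1 at 524 to 578 CPM there and a mean of 2279.8 CPM in Col-0; rows are ordered by the fold change of the double mutant over nlp2-3.

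In nlp7-1 against Col-0 roots, which share no library with the comparison above, 14 of the 21 genes were lower and none higher, with a median of -0.44, where 3.45% of all genes were called lower. ADH1 changed there by -0.53 ± 0.14 and SUS1 by -0.70 ± 0.12. The difference between both effects, tested as the interaction of the alleles, was called for 3 of the 21: NIP2;1 (-2.21 ± 0.33), PCO1 (-0.70 ± 0.12) and HRE1 (-0.74 ± 0.14), each with the larger fall in the nlp2-3 background. Over all genes tested the interaction was called for 0.239%, with 0.176% lower. The interaction of HRE1 lost its call without nlp2-3 replicate 1 or 3 or double mutant replicate 1 or 2 or nlp7-1 replicate 1, 2 or 3 or Col-0 replicate 1 or 2 and in a fit of only the groups compared, with adjusted p from 0.0519 to 0.0929. In shoots 4 of 19 measured genes were lower and 2 higher, where 12.9% of all genes were called lower and 13.6% higher.

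Phosphate genes fell in 7 of 26 cases and rose in 2, with a median of -0.14, against 3.66% lower and 2.82% higher among all genes. PHO1;H1 (AT1G68740), which with PHO1 exports phosphate into the xylem, held 7.32, 12.3 and 10.9 CPM in the double mutant and 48.5, 45.6 and 43.6 CPM in nlp2-3 (-2.17 ± 0.13, adjusted p = 1.56e-08). PHO1 changed by -0.58 ± 0.08, and PHO2, a ubiquitin-conjugating enzyme that restrains phosphate uptake, by -0.47 ± 0.08. The uptake carrier PHT1;2 changed by -0.87 ± 0.16. PHT1;2 and PHT1;3 are close copies and reads between them can be split by the counting. The noncoding RNA AT4 (-0.77 ± 0.15) lost its call in a fit of only the groups compared, with adjusted p = 0.0594, PHT1;3 (-1.54 ± 0.38) without nlp2-3 replicate 1 or 3 or double mutant replicate 1 or 3 and in a fit of only the groups compared, with adjusted p from 0.0696 to 0.149, and the phosphatase PAP17 (-0.56 ± 0.16), whose groups overlapped, without nlp2-3 replicate 2 or 3 or double mutant replicate 1 or 3, by limma on log2(FPKM + 1) and in a fit of only the groups compared, with adjusted p from 0.0578 to 0.232. PS2, a starvation-induced phosphatase, rose from 8.17 ± 0.610 to 13.5 ± 0.926 CPM (0.73 ± 0.11). PLDP2, a phospholipase D, also rose (0.59 ± 0.14), a call lost without nlp2-3 replicate 2 or 3 or double mutant replicate 1 and in a fit of only the groups compared, with adjusted p from 0.0556 to 0.0992. A fit of only the groups compared called 4 lower and 1 higher.

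Xylem loading genes and ion channels fell in 9 of 15 cases with none higher and a median of -0.83. Among all genes 3.66% were called lower. In this list 7 to 9 were lower without any 1 library. SKOR (AT3G02850), the channel that releases potassium into the xylem, stood at 2.75, 5.02 and 3.01 CPM in the double mutant and 15.6, 15.4 and 11.7 CPM in nlp2-3 (-1.97 ± 0.17, adjusted p = 8.65e-07). BOR1, a borate exporter, went from 85.9 ± 6.77 to 35.7 ± 2.82 CPM (-1.26 ± 0.10), and HKT1, which takes sodium back from the xylem, from 67.5 ± 5.36 to 34.2 ± 2.93 CPM (-0.98 ± 0.10). The root potassium channel AKT1 changed by -0.41 ± 0.08. The zinc pump HMA4 (-0.24 ± 0.07) lost its call without nlp2-3 replicate 1 or 3 or double mutant replicate 1 or 2, by limma on log2(FPKM + 1) and in a fit of only the groups compared, with adjusted p from 0.072 to 0.165. NPF7.3, PHO1, PHO1;H1 and SLAH1, described above, belong to this list too.

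Other uptake lists held fewer called genes, to be read against 3.66% of all genes called lower. In sulfate uptake and sulfur deficiency 3 of 14 genes were lower: the root carrier SULTR1;2 (-1.09 ± 0.18), with 120.1, 119 and 99.6 CPM in the double mutant and 262, 166 and 292 CPM in nlp2-3, and the vascular carriers SULTR2;1 (-0.55 ± 0.09) and SULTR2;2 (-1.04 ± 0.23). In iron uptake 3 of 27 were lower, the proton pump AHA2 (-0.49 ± 0.07), the metal carrier NRAMP1 (-0.44 ± 0.07) and the exporter ABCG37 (-0.52 ± 0.13), whose call was lost without nlp2-3 replicate 1 or double mutant replicate 2 or 3, with adjusted p from 0.0688 to 0.106. Aquaporins fell in 6 of 21 cases, with PIP2;3 at -0.79 ± 0.11, PIP1;1 at -0.54 ± 0.11 and PIP2;5 at -0.48 ± 0.07 besides NIP2;1; without any 1 library 4 to 8 were lower. PIP2;6 (-0.63 ± 0.17) lost its call without nlp2-3 replicate 1 or 2 or double mutant replicate 2 or 3 and in a fit of only the groups compared, with adjusted p from 0.0732 to 0.146, and PIP1;2 (-0.28 ± 0.08) without nlp2-3 replicate 1 or 3 or double mutant replicate 2 or 3, by limma on log2(FPKM + 1) and in a fit of only the groups compared, with adjusted p from 0.0534 to 0.16. Plasma membrane aquaporins are a family of near-identical copies, so their separate values are uncertain.

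**Figure D3:**
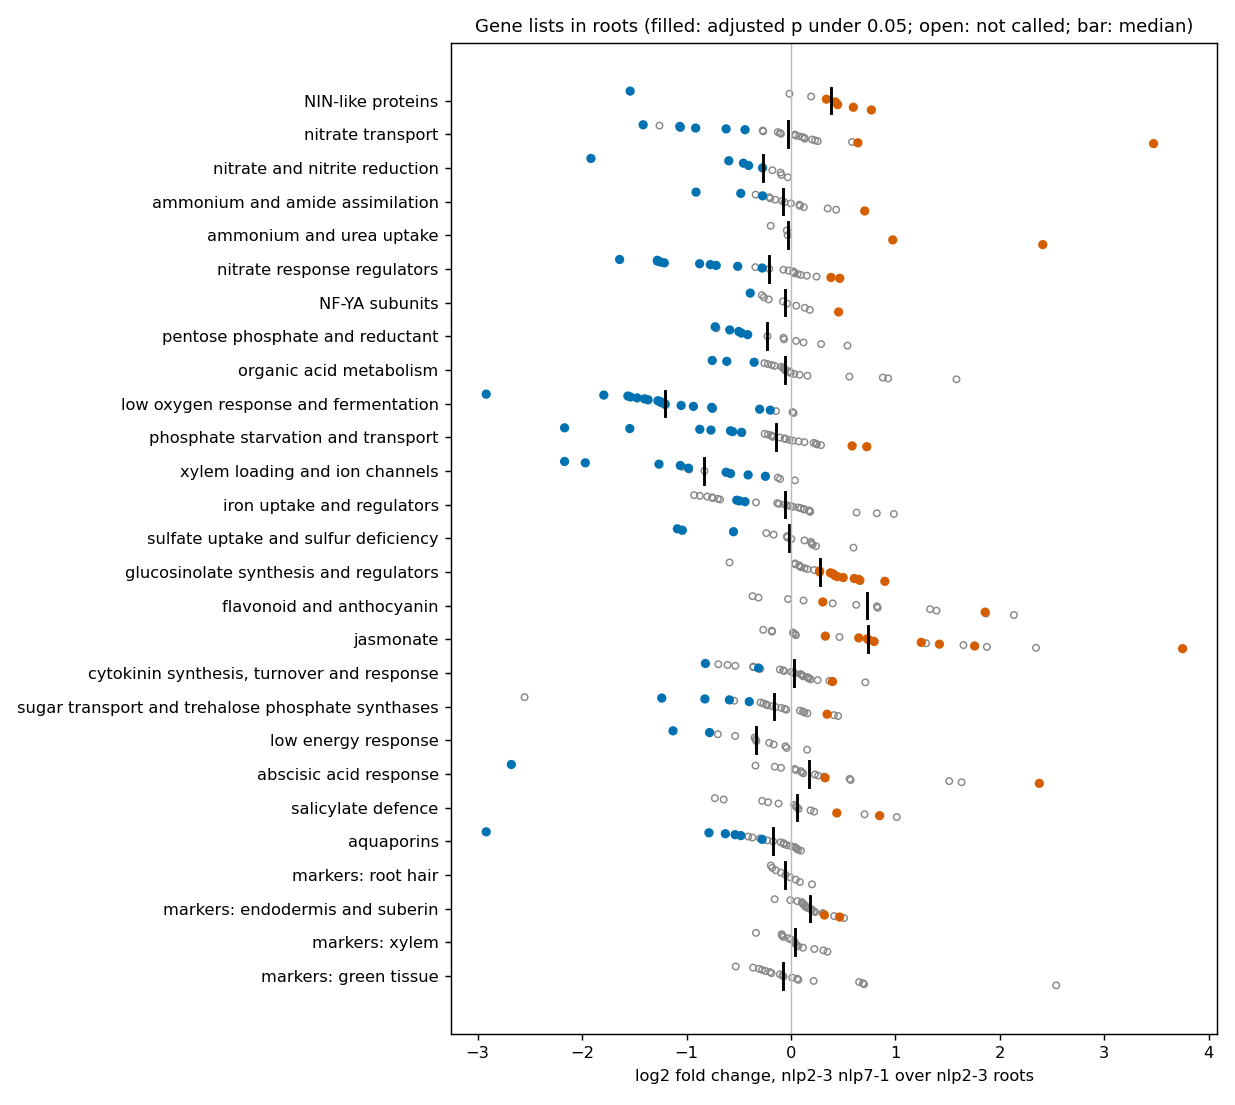
Log2 fold changes of the double mutant over nlp2-3 roots for the measured members of 27 gene lists, 1 point per gene. Filled points passed adjusted p under 0.05 (blue lower, orange higher), open points did not, and black bars mark list medians. The medians of the low oxygen list (-1.21) and the xylem loading list (-0.83) lie farthest to the left, and those of jasmonate (0.74) and of flavonoids (0.72) farthest to the right.

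Of 21 genes for glucosinolates, defence compounds that contain sulfur, 11 rose and none fell, with a median of 0.27, where 2.82% of all genes were called higher. CYP79B2 (AT4G39950), which turns tryptophan into the precursor of indole glucosinolates, stood at 691, 697 and 664 CPM in the double mutant and 450.1, 407 and 442 CPM in nlp2-3 (0.66 ± 0.07, adjusted p = 4.97e-06). MYB34, a transcription factor for that branch, rose by 0.50 ± 0.07, the sulfotransferase SOT16 by 0.61 ± 0.07, the glucosyltransferase UGT74B1 by 0.65 ± 0.09 and the next P450 in the branch, CYP83B1, by 0.42 ± 0.08. CYP79F2, of the aliphatic branch, rose by 0.38 ± 0.08. The other genes called were CYP79B3 (0.27 ± 0.08), SUR1 (0.27 ± 0.06), GGP1 (0.40 ± 0.07), SOT17 (0.44 ± 0.09) and CYP81F4 (0.90 ± 0.19). The call of CYP79B3 was lost without nlp2-3 replicate 1, 2 or 3 or double mutant replicate 1, 2 or 3, with the size factors of DESeq2, with no filter on low counts and in a fit of only the groups compared, with adjusted p from 0.051 to 0.153. The call of SUR1 was lost without nlp2-3 replicate 2 or double mutant replicate 3 and in a fit of only the groups compared, with adjusted p from 0.0589 to 0.0759. The call of GGP1 was lost in a fit of only the groups compared, with adjusted p = 0.0602. The call of CYP81F4 was lost in a fit of only the groups compared, with adjusted p = 0.0623. The number was 9 to 11 without any 1 library and 7 in a fit of only the groups compared. In nlp7-1 against Col-0, 17 of the 21 were higher, where 4.50% of all genes were called higher. CYP79B2 changed there by 0.82 ± 0.07. No interaction was called in the list, and only 0.239% of all genes tested had a called interaction.

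Jasmonate genes rose in 9 of 22 cases with none lower, where 2.82% of all genes were called higher. Their median was 0.74, against 0.01 over all genes. JAZ proteins repress jasmonate responses and their genes are switched on by the hormone. JAZ1 (AT1G19180) held 93.2, 212 and 150.3 CPM in the double mutant and 60.4, 59.7 and 50.3 CPM in nlp2-3 (1.42 ± 0.28, adjusted p = 0.00762), a call lost in a fit of only the groups compared, with adjusted p = 0.0852. JAZ5 stood at 8.72, 13.3 and 8.26 CPM against 5.05, 3.85 and 3.91 CPM (1.25 ± 0.19) and JAZ6 changed by 0.65 ± 0.12. AOS, which makes the allene oxide precursor of the hormone, held 60.0, 111 and 77.1 CPM against 55.3, 45.2 and 49.0 CPM (0.73 ± 0.17), a call lost without nlp2-3 replicate 2 or 3 and in a fit of only the groups compared, with adjusted p from 0.0574 to 0.161. Double mutant replicate 2 was the highest library for JAZ1, JAZ5, JAZ6, JAZ2, JAZ7 and AOS, and the number of higher calls was 5 without it. It dropped to 4 when nlp2-3 replicate 2 was left out and to 3 when nlp2-3 replicate 3 was, and a fit of only the groups compared made 2.

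The calls of JAZ2 (0.80 ± 0.17) and JAZ7 (1.76 ± 0.41) were lost without nlp2-3 replicate 2 or 3 and in a fit of only the groups compared, with adjusted p from 0.0508 to 0.0541 and without nlp2-3 replicate 3 or double mutant replicate 2 and in a fit of only the groups compared, with adjusted p from 0.0614 to 0.134, in that order. AOC3 (0.74 ± 0.20) and LOX3 (3.75 ± 1.0), enzymes of the same synthesis path, had overlapping groups. AOC3 lost its call without nlp2-3 replicate 1, 2 or 3 or double mutant replicate 2 or 3, with no filter on low counts and in a fit of only the groups compared, with adjusted p from 0.077 to 0.244, and LOX3, at under 1 CPM in 5 of the 6 libraries, without nlp2-3 replicate 1, 2 or 3 or double mutant replicate 2, with no filter on low counts and by limma on log2(FPKM + 1), with adjusted p from 0.0536 to 0.316. The reductase OPR3 (0.33 ± 0.10) lost it without nlp2-3 replicate 1, 2 or 3 or double mutant replicate 1 or 2, with the size factors of DESeq2, with no filter on low counts and in a fit of only the groups compared, with adjusted p from 0.053 to 0.254. The promoters of JAZ2 and JAZ7 are shown because MYC factors, the activators of jasmonate genes, are known to bind the G-box CACGTG, in capitals.
JAZ2, chr1:28150481-28150538, minus strand: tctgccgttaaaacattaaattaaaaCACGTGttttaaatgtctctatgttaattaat
JAZ7, chr2:14572970-14573027, plus strand: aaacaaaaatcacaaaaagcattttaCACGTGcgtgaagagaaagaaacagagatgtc
The G-box, which reads alike on both strands, was in 5 of the 22 jasmonate windows (22.7%), in 11.4% of the windows of genes called higher, in 8.56% of those called lower and in 7.83% of all. By list its share ran from 0% (such as aquaporins) to 28.6% (flavonoids), so it is not particular to jasmonate genes. Matches to the phosphate element P1BS (GNATATNC) were in 7 of 26 phosphate windows (26.9%) and 6.53% of all. Across the lists the P1BS share ran from 0% (low oxygen) to 27.3% (organic acid metabolism), so it is not particular to phosphate genes. The low oxygen element HRPE was in 9 windows of all genes and in none of the 21 of the low oxygen list.

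Smaller groups had few calls, to be read against 3.66% of all genes called lower and 2.82% called higher. Flavonoid genes had 2 higher of 14 (PAL1, 0.30 ± 0.07, and UF3GT, 1.86 ± 0.48), salicylate defence 2 higher of 15 (CBP60G, 0.85 ± 0.22, and EDS5, 0.44 ± 0.13). PAL1 lost its call without nlp2-3 replicate 2 or double mutant replicate 1 and in a fit of only the groups compared, with adjusted p from 0.0594 to 0.0649, UF3GT without nlp2-3 replicate 1, 2 or 3 or double mutant replicate 2, with adjusted p from 0.0576 to 0.0989, CBP60G without nlp2-3 replicate 1, 2 or 3 or double mutant replicate 2 or 3, with no filter on low counts and in a fit of only the groups compared, with adjusted p from 0.059 to 0.143 and EDS5 without nlp2-3 replicate 2 or 3 or double mutant replicate 1 or 2, with the size factors of DESeq2, with no filter on low counts and in a fit of only the groups compared, with adjusted p from 0.0521 to 0.184. In the abscisic acid list 1 of 18 was lower and 2 were higher. AHG1, a phosphatase that blocks abscisic acid signalling, stood at 0.804, 0.677 and 0.365 CPM in the double mutant and 3.58, 3.75 and 4.61 CPM in nlp2-3 (-2.68 ± 0.28). AHG3, a related phosphatase, rose by 0.33 ± 0.07 and lost its call in a fit of only the groups compared, with adjusted p = 0.0565. COR15A, a cold-regulated chloroplast protein, rose by 2.38 ± 0.53 from 0.147, 1.05 and 0.489 CPM to 2.54, 2.79 and 3.42 CPM and lost its call without nlp2-3 replicate 3, with adjusted p = 0.057.

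Sugar signalling genes had 4 lower and 1 higher of 22 measured, against 3.66% lower and 2.82% higher among all genes. TPS10 and TPS9, class II trehalose phosphate synthase proteins, changed by -1.24 ± 0.14 and -0.59 ± 0.09, and TPS1, the catalytically active one, by 0.35 ± 0.06. TPS11 (-0.82 ± 0.23) lost its call without nlp2-3 replicate 1 or double mutant replicate 1 or 3, with no filter on low counts, by limma on log2(FPKM + 1) and in a fit of only the groups compared, with adjusted p from 0.0518 to 0.183, and the sucrose carrier SUC1 (-0.40 ± 0.11) without nlp2-3 replicate 1 or 3 or double mutant replicate 1 or 2, with no filter on low counts, by limma on log2(FPKM + 1) and in a fit of only the groups compared, with adjusted p from 0.0518 to 0.201. The number of lower calls was 7 by DESeq2 and 2 to 4 when 1 library was left out. In the low energy response 2 of 12 were lower, DIN10, a dark-induced gene, at -1.13 ± 0.12 and BCAT2, an aminotransferase of branched-chain amino acids, at -0.78 ± 0.20. BCAT2 lost its call without nlp2-3 replicate 1 or double mutant replicate 2 or 3, with adjusted p from 0.0796 to 0.0983. Among 26 cytokinin genes IPT5, a synthesis enzyme, went from 40.0 ± 2.2 to 22.6 ± 2.85 CPM (-0.82 ± 0.13). The response regulator ARR9 (-0.31 ± 0.08) lost its call without nlp2-3 replicate 1 or 3 or double mutant replicate 2 or 3 and in a fit of only the groups compared, with adjusted p from 0.0589 to 0.125, and LOG7 (0.40 ± 0.11), which frees active cytokinin, without nlp2-3 replicate 1 or 2 or double mutant replicate 1, 2 or 3 and in a fit of only the groups compared, with adjusted p from 0.0546 to 0.116. The suberin genes called higher were FAR4 (0.32 ± 0.09), lost without nlp2-3 replicate 1, 2 or 3 or double mutant replicate 1 or 2 and in a fit of only the groups compared, with adjusted p from 0.0755 to 0.202, and ABCG6 (0.47 ± 0.13), lost without nlp2-3 replicate 2 or 3 or double mutant replicate 1 or 2, with no filter on low counts and in a fit of only the groups compared, with adjusted p from 0.0591 to 0.175.

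Outside these lists, the genes named for a large fall included UMAMIT14, an amino acid exporter, with means of 10 ± 0.279 CPM in the double mutant and 41.3 ± 7.90 CPM in nlp2-3 (-2.05 ± 0.21). MEE14 changed by -1.83 ± 0.17, SAG21, a late-embryogenesis-abundant protein, by -1.68 ± 0.16, the glutaredoxin GRXS13 by -1.63 ± 0.15 and the glutathione transferase GSTF14 by -1.61 ± 0.21. BGLU18, a beta-glucosidase, went from 11.3, 9.95 and 18.0 CPM to 2.2, 2.75 and 1.96 CPM (-2.51 ± 0.56), a call lost without nlp2-3 replicate 3 or double mutant replicate 1, 2 or 3, with adjusted p from 0.0506 to 0.0676. The largest rises after NRT2.5 included GRX480, a glutaredoxin partner of TGA factors, at 5.20, 17.4 and 7.53 CPM against 2.01, 1.40 and 1.54 CPM (2.61 ± 0.40). MEE3 rose by 1.74 ± 0.24, SUFE2, which activates a cysteine desulfurase, by 1.46 ± 0.17, ACR6 by 1.2 ± 0.19 and ARP9, an actin-related protein, by 1.1 ± 0.12.

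Several other large rises lost their call when a library was left out. ORA47, an activator of jasmonate synthesis, held 3.00, 29.5 and 14.3 CPM in the double mutant and 1.52, 2.85 and 2.79 CPM in nlp2-3 (2.7 ± 0.71), with a call lost without nlp2-3 replicate 1, 2 or 3 or double mutant replicate 2 or 3, with no filter on low counts, by limma on log2(FPKM + 1) and in a fit of only the groups compared, with adjusted p from 0.0593 to 0.249. The AAA-type ATPase BCS1 held 33.4, 106 and 71.0 CPM against 24.9, 32.7 and 30.2 CPM (1.26 ± 0.33) and lost its call without nlp2-3 replicate 1, 2 or 3 or double mutant replicate 2 or 3, with no filter on low counts and in a fit of only the groups compared, with adjusted p from 0.059 to 0.265. For GRX480, ORA47 and BCS1, as for JAZ1 and AOS, replicate 2 was the highest double mutant library. The kinase MKK9 (1.22 ± 0.26) lost its call without nlp2-3 replicate 1, with adjusted p = 0.0535, and the chaperone HSP70 (1.07 ± 0.25) without nlp2-3 replicate 1 or 2 or double mutant replicate 1 or 3 and in a fit of only the groups compared, with adjusted p from 0.0586 to 0.126.

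Whether nlp7-1 does the same in roots with intact NLP2 was read from nlp7-1 against Col-0, which uses 6 other libraries. There 1627 genes (7.94%) were called, 706 lower (3.45%) and 921 higher (4.50%). Of the 1326 genes called in the nlp2-3 background, 644 were called in the same direction in both, 383 lower and 261 higher. They made up 48.6% of one list and 39.6% of the other, and 2 genes were called in opposite directions. Of the 1326, 1239 (93.4%) had the same sign. Across the 20486 genes, no set of independent replicates, Pearson's r between both sets of fold changes was 0.499. NRT2.1 changed by -1.11 ± 0.12 in the Col-0 background and -1.42 ± 0.12 in the nlp2-3 background, LBD39 by -1.41 ± 0.07 and -1.28 ± 0.07, and SKOR by -2.57 ± 0.16 and -1.97 ± 0.17. A further 680 genes were called in the nlp2-3 background and not in the Col-0 background, and the difference between both effects was called for 21 of these.

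**Figure D4:**
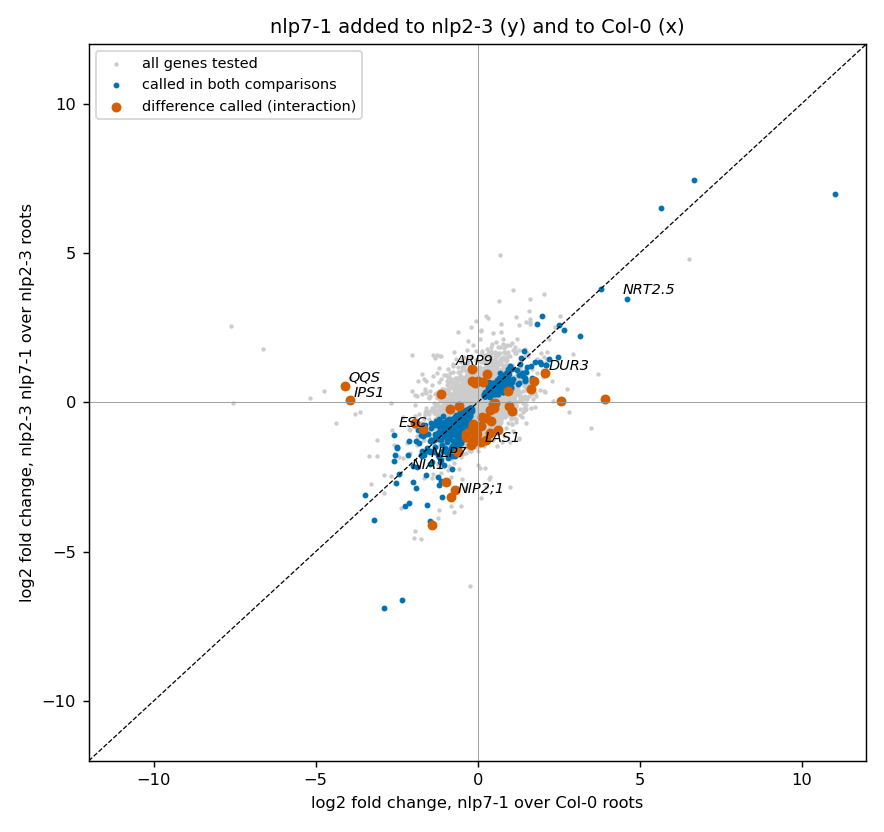
Log2 fold changes of 20486 genes in roots for nlp7-1 over Col-0 (x) and for nlp2-3 nlp7-1 over nlp2-3 (y); the dashed line marks equal change. Grey points are all genes tested, blue points the genes called in both comparisons and orange points the 49 genes whose difference was called. DUR3 lies below the line on the higher side, NIP2;1 below it on the lower side, and ARP9 above it.

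The difference itself, the interaction of both alleles on the log2 scale, was called for 49 genes (0.239%), 36 lower (0.176%) and 13 higher (0.0635%) in the nlp2-3 background. It reads as an interaction of the alleles only if Col-0 is the parent of both lines, which the labels leave unsaid for nlp2-3; otherwise allele and parent line cannot be told apart in it. In DUR3 the double mutant lay below the sum of the log2 changes of both single mutants, with an interaction of -1.09 ± 0.15 (adjusted p = 0.0017). That sum is one of log2 changes and not of CPM. DUR3 stood at 21.1, 21.1 and 21.3 CPM in Col-0 and 92.3, 86.4 and 88.0 CPM in nlp7-1. It held 89.8, 79.7 and 90.6 CPM in nlp2-3 and 187, 185 and 139.9 CPM in the double mutant. GDH3, a glutamate dehydrogenase, showed an interaction of -1.22 ± 0.19. GLN1;4 had one of -1.02 ± 0.20 that lost its call without nlp2-3 replicate 1, 2 or 3 or double mutant replicate 2 or 3 or nlp7-1 replicate 1, 2 or 3 or Col-0 replicate 1 or 2, with no filter on low counts and in a fit of only the groups compared, with adjusted p from 0.058 to 0.153. APS4, an ATP sulfurylase of sulfate assimilation, stood at 739 ± 27.9 CPM in nlp2-3 and 329 ± 36 CPM in the double mutant, against 395 ± 34.3 CPM in Col-0 and 306 ± 21.9 CPM in nlp7-1 (interaction -0.80 ± 0.11). AGL79, a MADS-box factor, was lowest in the double mutant, at 58.0, 60.2 and 59.5 CPM, with means of 115 ± 10.4 in nlp2-3, 106 ± 7.11 in nlp7-1 and 120.3 ± 7.12 in Col-0 (interaction -0.77 ± 0.09, adjusted p = 0.000354).

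In some of these genes nlp2-3 was the highest genotype. LAS1, a lanosterol synthase, stood at 25.5 ± 1.98 CPM in nlp2-3 and at 10.2 ± 0.666, 9.66 ± 1.75 and 9.04 ± 1.85 CPM in the double mutant, nlp7-1 and Col-0 (interaction -1.42 ± 0.19). The P450 genes CYP76G1 (-1.56 ± 0.22), CYP93D1 (-1.03 ± 0.15) and CYP712A2 (-1.41 ± 0.24) also had their highest mean in nlp2-3. PHO2 had an interaction of -0.62 ± 0.11, which lost its call without nlp2-3 replicate 3, with adjusted p = 0.0514. In the other direction ARP9 stood at 40.0 ± 4.55 CPM in the double mutant and 18.6 ± 3.23, 12.2 ± 0.128 and 13.7 ± 2.17 CPM in nlp2-3, nlp7-1 and Col-0 (interaction 1.27 ± 0.18). CuAO1, a copper amine oxidase (0.72 ± 0.12), LDL1, a histone demethylase (0.73 ± 0.13), PS2 (0.90 ± 0.16) and ESC, an AT-hook protein (0.80 ± 0.15), were also above the sum of log2 changes. CuAO1 lost its call without nlp2-3 replicate 3, with adjusted p = 0.0514, LDL1 without double mutant replicate 2 or nlp7-1 replicate 1 and in a fit of only the groups compared, with adjusted p from 0.0529 to 0.0662, PS2 without nlp2-3 replicate 3 or nlp7-1 replicate 3, with adjusted p from 0.0577 to 0.069 and ESC without nlp2-3 replicate 1 or 3 or nlp7-1 replicate 1, 2 or 3 and in a fit of only the groups compared, with adjusted p from 0.0517 to 0.104. QQS was highest in Col-0, at 15.5, 13.1 and 19.9 CPM, against a mean of 1.28 ± 0.783 CPM in the double mutant, 0.874 ± 0.112 in nlp2-3 and 0.946 ± 0.302 in nlp7-1 (interaction 4.66 ± 0.52). Col-0 also stood apart in AT3G05945 (-2.51 ± 0.17) and AT3G05170 (-3.80 ± 0.32), the interactions with the smallest p, which have no symbol. Their Col-0 means were 2.15 and 0.609 CPM. In nlp2-3, nlp7-1 and the double mutant the means were 12.1 to 12.7 and 9.56 to 10.7 CPM.

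In shoots the same pair of genotypes differed in 5081 of 19137 genes tested (26.6%), 2474 lower and 2607 higher. The root effect minus the shoot effect was tested in a fit of all 36 libraries and was called for 2490 of 21554 genes (11.6%), 1333 lower (6.18%) and 1157 higher (5.37%) in roots. Of 24 measured nitrate transport genes 11 had a lower and 2 a higher effect in roots. NPF7.3 fell in roots (-1.06 ± 0.10) and rose in shoots, a difference of -2.2 ± 0.17. NRT3.1 likewise changed by -1.06 ± 0.14 in roots and 1.45 ± 0.14 in shoots, and SUS1 by -1.40 ± 0.12 and 0.33 ± 0.06, whereas NIA1 fell in both (-1.92 ± 0.13 and -1.32 ± 0.22) with no call for the difference (adjusted p = 0.122). ESC showed the largest difference among those named, at -6.10 ± 0.28: it went from 67.2, 73.2 and 70.0 CPM in nlp2-3 roots to 47.9, 34.7 and 31.5 CPM in double mutant roots, and from 0.280, 0.314 and 0.631 CPM to 15.6, 14.7 and 13.7 CPM in shoots.

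CYP79B2, in turn, rose in both tissues, by 0.66 ± 0.07 in roots and 1.83 ± 0.10 in shoots, with a called difference of -1.19 ± 0.13. SIP2, which splits raffinose, fell in roots (-0.35 ± 0.07) and rose in shoots (1.54 ± 0.12), and so did the thioredoxin ACHT4 (-0.44 ± 0.08 and 1.05 ± 0.07). The kinase SIP3, the mannan synthase CSLA02, the potassium antiporter KEA1 and the glucanase GH9B8 fell in shoots, KEA1 by -0.87 ± 0.05, and were not called in roots, where their values were -0.05 to 0.14. COR15A rose in roots and fell in shoots (-1.64 ± 0.13), with a difference of 4.01 ± 0.42.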

How the data were processed

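Root and shoot RNA of 6 genotypes was measured in 36 libraries, 3 per genotype and tissue. The authors deposited raw counts per gene and FPKM (fragments per kilobase, scaled to library size) for 34218 features. HISAT2, HTSeq and the TAIR10 build are listed in the submitters' processing notes; versions, strand setting and filters are not given in the sources used here, so counts of overlapping, antisense or near-identical genes are uncertain. Gene names and promoter windows come from RefSeq TAIR10.1, in which 32548 loci were found.

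Low genes were removed by filterByExpr with a minimum count of 10 and a total of 15, and the rest was scaled by TMM and fitted with the robust quasi-likelihood model of edgeR 4.0.16 in R 4.3.3. Each tissue was fitted with its 18 libraries (12 residual degrees of freedom), and roots and shoots together with all 36 (24). Tests were two-sided, with Benjamini-Hochberg adjustment over all genes tested, and the standard error is the size of the log2 fold change over the square root of F. The steps were tested on simulated data. Alternatives were DESeq2 size factors, no filter, a mean of at least 5 CPM, DESeq2 1.42.0, limma 3.58.1 on log2(FPKM + 1) of the deposited FPKM, a fit of only the groups compared, a replicate block, and leaving out each library.

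The labels number the replicates and do not say whether they are separate cultures, so p-values may measure technical spread. Library pairs of the double mutant roots and of the nlp2-3 roots all differed by more than counting noise; other groups were not compared in this way.

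The members and the 27 gene lists (487 genes, 457 tested) were chosen with earlier results of these data known. Genes named by rule are NLP1 to NLP9, NPF6.3, NRT2.1, NIR1, NIA1 and NIA2. It adds, per direction, the up to 12 called genes of greatest fold change that have a symbol, average 5 CPM or more and do not overlap between groups. It also takes up to 6 called members of each list with the smallest p, and up to 5 per direction with the smallest p for the interaction and for root minus shoot, again with a symbol and 5 CPM. Further called list members and all 21 low oxygen genes are named outside that rule and were chosen after their values were seen. So were the interactions of NIP2;1, PCO1, HRE1, GDH3, QQS, CYP93D1, CYP712A2, AT3G05945 and AT3G05170.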

Additional observations from a re-analysis of the deposited data

Results flagged for a closer look

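The interaction of the alleles in roots, which tests whether nlp7-1 has another effect in the nlp2-3 background than in the Col-0 background, was called for 49 genes. Of those named with a symbol, the ones below the sum of both log2 effects were AGL79 (-0.77), DUR3 (-1.09), LAS1 (-1.42), APS4 (-0.80), CYP76G1 (-1.56), NIP2;1 (-2.21), GLN1;4 (-1.02), PCO1 (-0.70), PHO2 (-0.62), HRE1 (-0.74), GDH3 (-1.22), CYP93D1 (-1.03) and CYP712A2 (-1.41). Those above it were ARP9 (1.27), CuAO1 (0.72), PS2 (0.90), LDL1 (0.73), ESC (0.80) and QQS (4.66). Values are log2 interaction terms, and they rest on Col-0 as the reference of both lines, while the labels do not give the parent of nlp2-3. Those of NIP2;1, PCO1, HRE1, GDH3, QQS, CYP93D1 and CYP712A2 were added after their values were seen.

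The effect of nlp7-1 in the nlp2-3 background differed between roots and shoots for 2490 genes. As root minus shoot log2 fold changes the named genes were ESC (-6.10), NPF7.3 (-2.20), SIP2 (-1.91), SUS1 (-1.75) and ACHT4 (-1.51) on the lower side. On the higher side they were COR15A (4.01), GH9B8 (1.02), SIP3 (1.00), KEA1 (0.80) and CSLA02 (0.78). Outliers within groups were not searched for, since each group has 3 libraries. The causes of these differences were not tested.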

How the results depend on the processing

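The 1326 genes called in double mutant against nlp2-3 roots were 694 in a fit of only the groups compared, whose spread rests on 6 libraries, and 870 to 1197 when 1 library was left out, the lowest without nlp2-3 replicate 3. DESeq2 size factors gave 1293, no filter 1187, a mean of at least 5 CPM 1251, DESeq2 1718 and limma on log2(FPKM + 1) 1266. With the replicate block the number was 1699, that of nlp7-1 against Col-0 roots rose from 1627 to 2027, and that of the interaction from 49 to 77. Same-numbered libraries of both genotypes deviated from their group means with correlations of 0.417, -0.101 and 0.0243 over 15649 genes. The highest correlation of any pair was that of double mutant replicate 3 with nlp2-3 replicate 2 (0.426). Double mutant replicate 2 correlated best with nlp2-3 replicate 3 (0.147), so the numbers do not establish a pairing. Leaving out 1 library gave 1010 to 1773 genes for nlp7-1 against Col-0 (1061 without nlp7-1 replicate 2, 1010 without nlp7-1 replicate 3), 23 to 67 for the interaction, 3916 to 4407 for shoots (5081 with all libraries) and 1887 to 2413 for root minus shoot (2490 with all). The interaction had 149 calls by DESeq2 and 1723 genes with an unadjusted p under 0.05; leaving out nlp2-3 replicate 3 left 23 calls, and leaving out nlp7-1 replicate 1, 2 or 3 left 27, 28 and 28.

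Of 144 named genes called in the comparison, 91 kept their call and direction under every alternative run. Signs changed only among genes that were not called. NLP1, at -0.01, came to 0.00217 by limma and ranged from -0.0819 to 0.0179 when 1 library was left out. Over the same omissions RAP2.12, at 0.01, ranged from -0.0524 to 0.0509 and SRO5, at 0.03, from -0.104 to 0.194. The cause of these changes was not tested. With DESeq2 size factors the median of all genes was 0.004 in place of 0.014 on the log2 scale. Depth limits the genes under about 1 CPM, such as NLP9.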

Other observations

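Called interactions included neighbours on the chromosomes of TAIR10.1. CYP93D1 and CYP712A2, P450 genes of chromosome 5, are next to each other among the genes tested, with interactions of -1.03 and -1.41. On chromosome 1 the genes AT1G52790, AT1G52800 and AT1G52820 are adjacent among those tested, with -1.53, -0.88 and -0.83, and AT1G62790, CuAO1, LDL1 and AT1G62870 lie within a short run, with 0.52, 0.72, 0.73 and 0.67. QQS, highest in Col-0, lies 7 tested genes from AGL79 on chromosome 3. Counts without strand cannot tell reads of overlapping neighbours apart, and the part of that in these values was not tested. Any other difference between the lines near these genes cannot be told apart from the alleles either.

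The 10 tested genes on each side of NLP7 and of NLP2, both on chromosome 4, were read for changes beside the targeted genes. Of the 20 around NLP7, 2 were called, where 6.47% of all genes were called. They were TRE1, the trehalase, and AT4G24110, both lower in the double mutant than in nlp2-3. Whether genes beside NLP7 change more often than others was not tested. Of the 20 around NLP2, whose allele both groups carry, 0 were called.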
